A study of Arabidopsis thaliana with 12 samples.

Results

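BIM1 is a basic helix-loop-helix (bHLH) transcription factor of Arabidopsis thaliana, locus AT5G08130 on chromosome 5 (Entrez gene 830708), with 8 transcripts in RefSeq. It was chosen by name, with earlier results of these data known. For BIM1, 1 probe set, 250569_at, is annotated among the 22746 probe sets other than controls. The array measures this gene once, so its transcripts were not told apart. RNA came from the aerial part of 4-day-old seedlings, plated as sterilised seeds on agar with Murashige and Skoog medium. There were 4 groups of 3 arrays, each array labelled as a biological replicate: wild-type Ler (Landsberg erecta) and the mutant atbzip16, each raised either etiolated, in darkness, or in long days of red light of 0.5 µmol per square metre and second (called red light here). The labels name the mutant by its gene, the bZIP transcription factor bZIP16, and give neither the allele nor the number of lines. They do not say how many seedlings made up a sample. The bZIP16 transcript was not analysed here, because no probe set was annotated to it by name, so the mutant label has no check from its own transcript.

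Brassinosteroids are plant steroid hormones that promote cell expansion, above all in the hypocotyl of dark-grown seedlings. The hormone is bound at the cell surface by the receptor kinase BRI1 and its relatives. Signalling then switches off the kinase BIN2, and the transcription factors BZR1 and BES1 act on growth genes. BIM1 (BES1-INTERACTING MYC-LIKE 1) was found as a partner of BES1, with which it binds E-box elements in promoters of brassinosteroid-induced genes. Light restrains hypocotyl growth and opens the seedling, and much of this control runs through transcription factors that share targets with the brassinosteroid pathway.

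Groups follow the sample titles, which match the labelled treatments. The free-text descriptions of all 3 dark atbzip16 and all 3 red-light Ler samples name the opposite light condition. The summed signal of 5 green-tissue markers (LHCB4.2, PSAN, PSAE-1, PSBY and CHLM, of 8 listed) was 13222.3 to 20469.3 on the arrays titled dark and 43610.5 to 77356.3 on those titled red light. For the labelled tissue, 2 of 8 listed root markers were measured. PYK10, a beta-glucosidase of ER bodies that is abundant in roots and young seedlings, had a signal of 14456.5 to 22024.3, and EXPA7, a root-hair expansin, 2.9 to 96.5. The array medians of signal lay between 148.3 and 186.1.

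BIM1 was well above the array median in every sample and was lower under red light than in the dark. In dark Ler its signal was 821.5, 964.7 and 874.7 in replicates 1, 2 and 3 (mean 887 ± 72.4, SD, n = 3). In dark atbzip16 it was 1073.4, 1199.1 and 1066.4 (mean 1113 ± 74.7, SD, n = 3). In red-light Ler it was 476.2, 497.2 and 455.7 (mean 476 ± 20.8, SD, n = 3). In red-light atbzip16 it was 496.9, 454.3 and 541.3 (mean 498 ± 43.5, SD, n = 3). The 6 dark arrays, at 821.5 to 1199.1, lay wholly above the 6 red-light arrays, at 454.3 to 541.3. Within a genotype, 3 red-light arrays wholly below 3 dark arrays were seen for 15.7% of all tested probe sets in Ler and 16.7% in atbzip16. The share with all 6 arrays below the other 6, a stricter condition, was not computed. From highest to lowest the groups ran dark atbzip16, dark Ler, red-light atbzip16 and red-light Ler. Of the neighbours in that order, neither the dark pair nor the red-light pair differed past the threshold used here, and dark Ler and red-light atbzip16 did not overlap but were not tested against each other.

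**Figure D1:**
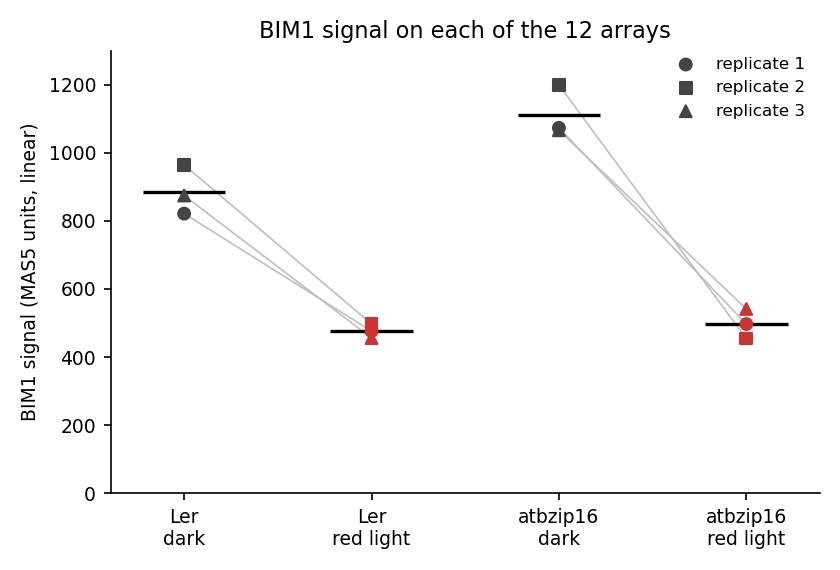
Signal of BIM1 on each of the 12 arrays by group (points, scaled MAS5 signal on a linear axis). Short black lines mark the geometric mean of 3 arrays, and grey lines join dark and red-light arrays of the same genotype and replicate number. The 6 dark arrays sit between 821.5 and 1199.1, above all 6 red-light arrays, and the atbzip16 arrays lie above the Ler arrays in the dark.

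The first comparison asks how growth under red light and long days, against darkness, goes with the BIM1 transcript in each genotype. Differences are given on the log2 scale of signal, from a limma model with a mean per group and the replicate number as a block. A gene is said to have changed at a Benjamini-Hochberg adjusted p under 0.05 over 15922 probe sets. In Ler, BIM1 fell by 0.89 ± 0.12 (SE; 95% interval -1.15 to -0.64; limma adjusted p = 7.11e-05), a geometric mean signal 1.86-fold lower (1.56 to 2.21). The 3 differences between arrays of the same replicate number were -0.79, -0.96 and -0.94. In atbzip16 it fell by 1.16 ± 0.12 (-1.42 to -0.91; limma adjusted p = 5.11e-06), or 2.24-fold (1.88 to 2.67), with differences of -1.11, -1.40 and -0.98. All 6 pairs thus went the same way. In bulk RNA, a loss of cells that hold the transcript and less of it per cell cannot be told apart.

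Light responses were common among the genes of these seedlings. Of all probe sets tested, 23.6% changed with light in Ler, 12.6% downward, and 26.5% changed in atbzip16, 13.4% downward. The fall of BIM1 was the 734th largest of the 2003 falls called in Ler and the 583rd largest of the 2130 in atbzip16. Larger falls, called or not, were seen in 6.05% and 4.28% of the tested probe sets. Without the replicate block, 11.4% and 14.0% of probe sets changed, and BIM1 was still among them (limma adjusted p = 0.000584 in Ler and 6.49e-05 in atbzip16). The median of all tested probe sets was -0.06 in Ler and -0.02 in atbzip16. Centring each array on its median moved these to 0.04 and 0.08, and the falls of BIM1 to -0.79 and -1.06. Relative to the median of all tested probe sets, BIM1 was at -0.83 in Ler and -1.14 in atbzip16. Median centring cannot change these values, since it shifts every probe set of an array by the same amount. After quantile normalization they were -0.85 and -1.16.

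**Figure D2:**
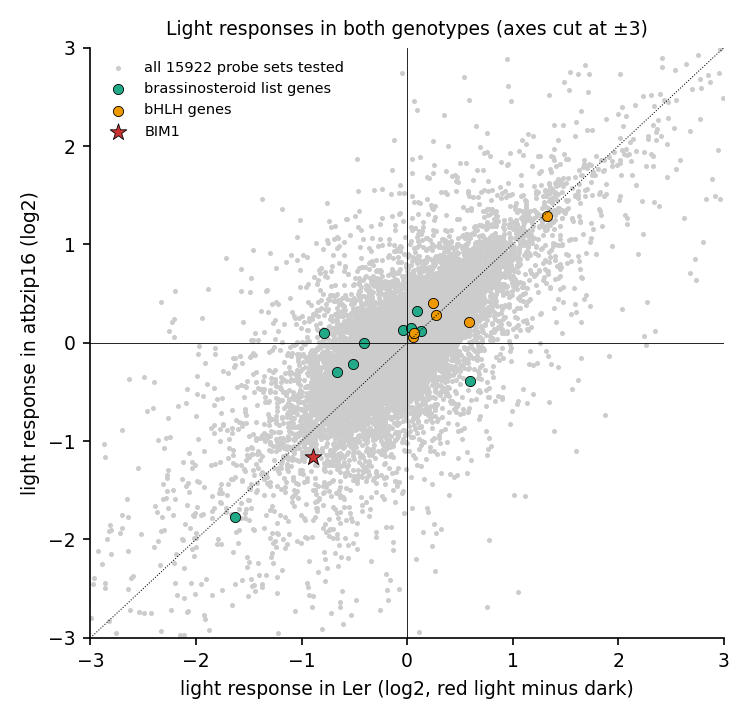
Log2 difference in signal between red light and dark in Ler (horizontal axis) and atbzip16 (vertical axis) for each tested probe set (grey). BIM1 (red star), the brassinosteroid-list genes (green) and the other tested bHLH genes named below (orange) are marked. BIM1 lies at -0.89 and -1.16, inside the cloud of genes lower in red light; 202 probe sets beyond 3 log2 units on either axis are not drawn.

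Averaged over both genotypes, the light difference was -1.03 ± 0.08 (limma adjusted p = 2.58e-07), where 38.5% of probe sets passed. Among all 400 ways to assign light labels within the genotypes, the exact permutation test gave a two-sided p of 0.005, the smallest it can give. With labels exchanged only within a replicate number, the exact two-sided p was 0.03125 over 64 assignments, again the smallest possible. Light accounted for 92.6% of the variance of the 12 log2 signals of BIM1. The median over all tested probe sets was 20.3%, and 0.835% of them had a higher share. The replicate number took 0.386% for BIM1 and a median of 21.2% for the rest, and the unexplained part was 2.1% against a median of 26.1%. The residual SD of BIM1 was 0.11 on the log2 scale, where the median probe set had 0.21 and 11.3% had a smaller one.

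The second comparison asks whether loss of bZIP16 goes with another level of BIM1. In the dark, BIM1 was higher in atbzip16 than in Ler in each of the 3 pairs, by 0.39, 0.31 and 0.29. The groups did not overlap, as held for 12.3% of all tested probe sets, 5.86% with atbzip16 higher. The difference of 0.33 ± 0.12 (SE; 95% interval 0.08 to 0.58; ratio 1.26, 1.05 to 1.5) had an unadjusted limma p of 0.0144 and an adjusted p of 0.215, so it did not pass the threshold. Of all tested probe sets, 1.82% passed it in this comparison, 1.26% upward. Without the block the adjusted p was 0.680, and 0.0628% of probe sets passed. Leaving out any single array kept the difference between 0.28 and 0.38, with adjusted p from 0.185 to 0.501.

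Under red light the pairs went both ways, at 0.06, -0.13 and 0.25, and the genotypes overlapped. The difference was 0.06 ± 0.12 (SE; 95% interval -0.19 to 0.31; ratio 1.04, 0.875 to 1.24; limma adjusted p = 0.908), where 0.546% of probe sets passed. Its sign turned, to -0.026, when replicate 3 of red-light atbzip16 was left out. The interval leaves room for a change of up to 1.24-fold upward. Whether the fall with light differed between the genotypes was tested by the interaction term. It was -0.27 ± 0.17 (SE; 95% interval -0.63 to 0.09), the negative sign meaning a larger fall in atbzip16, with an unadjusted limma p of 0.129 and an adjusted p of 0.697. Over all tested probe sets, 0.339% passed for the interaction. The genotype difference averaged over both light conditions was 0.19 ± 0.08 (95% interval 0.02 to 0.37; limma adjusted p = 0.290), where 2.08% of probe sets passed. The exact permutation test on this one value gave a two-sided p of 0.035 over 400 assignments and 0.09375 over the 64 within replicate numbers, where 0.03125 is the smallest possible. Genotype took 3.30% and the interaction 1.58% of the variance of BIM1, against medians of 3.79% and 2.68%.

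**Figure D3:**
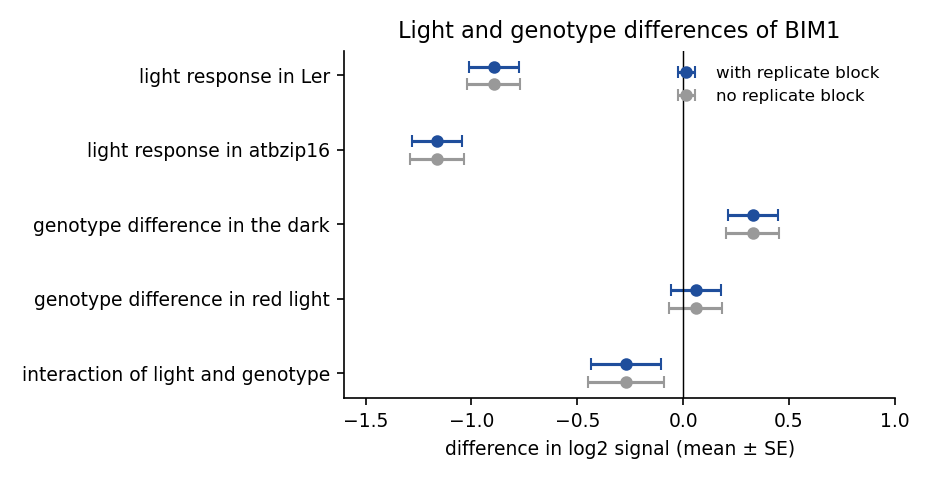
Differences in log2 signal of BIM1 (points, estimate; bars, SE) from limma with the replicate block (blue) and without it (grey). Both light responses lie far below 0, at -0.89 and -1.16, and the dark genotype difference of 0.33 is the largest of the remaining ones but misses the threshold.

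Of 105 brassinosteroid genes listed by role, 10 were annotated to a kept probe set, none of them a synthesis gene. BES1, BZR1, BIM2, BIM3, BRI1, DWF4 and CPD had no probe set named for them and were not analysed here. Among the 10, none rose and 3 fell with light in Ler (median -0.22, all tested -0.06), where 12.6% of all probe sets fell. In atbzip16 none rose and 1 fell (median 0.05, all tested -0.02), where 13.4% fell. These 10 genes give a narrow view of the pathway, since 7 of them are growth genes downstream of the hormone.

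BAT1, an acyltransferase that inactivates brassinosteroids, had a signal of 757.1, 780.7 and 744.4 in dark Ler and of 485.3, 398.9 and 571.2 in red-light Ler, with no overlap. It fell by 0.66 ± 0.15 in Ler (limma adjusted p = 0.00406). In dark atbzip16 it was 586.5, 589.1 and 647.8 and under red light 602.6, 395 and 502.2, so the groups overlapped, and the difference was -0.30 ± 0.15 (limma adjusted p = 0.148). The receptor gene BRL1, a relative of BRI1, was dim, at 95.1, 96.2 and 89.8 in dark Ler and 45.9, 57.1 and 61.5 in red-light Ler. Its difference there of -0.78 ± 0.40 did not pass, nor did that of 0.10 in atbzip16. Of the transcription factors and partners, CES, a bHLH factor of the pathway, stayed under the signal filter at 6 to 35.3. PHV, an HD-ZIP III factor, differed by 0.10 in Ler and 0.32 in atbzip16, without passing.

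Among the 7 growth genes, XTH19 and ARL changed. XTH19, a xyloglucan endotransglucosylase that remodels the cell wall, was at 783.9, 2235 and 2689.6 in dark Ler and 515.1, 607.1 and 506.2 in red-light Ler. In atbzip16 it was at 1220.6, 2096.7 and 2000.1 in the dark and 539.3, 464.1 and 513.8 under red light. It fell by 1.63 ± 0.27 in Ler (limma adjusted p = 0.000539) and differed by -1.77 ± 0.27 in atbzip16 (limma adjusted p = 0.00024), a steeper fall than that of BIM1 with a wide spread between the dark replicates. ARL, which promotes cell expansion, was at 2140.8, 2312.9 and 2303.7 in dark Ler and 1837.8, 1588.2 and 1342.1 in red-light Ler, a fall of 0.51 ± 0.12 (limma adjusted p = 0.00554). Its difference in atbzip16 was -0.22 (limma adjusted p = 0.199). The other growth genes, EXPA8 (an expansin), XTH18, the receptor-like kinases THE1 and FER, and EXO, did not pass in either genotype. XTH18 was highest in replicate 1 of both red-light groups, with 1594.7 against 309.6 and 304.1 in Ler and 841.5 against 246.8 and 268.4 in atbzip16. Its difference of 0.59 in Ler became -0.07 without replicate 1 of red-light Ler.

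None of the 10 genes passed for the genotype difference in the dark (-0.87 to 0.50, median -0.21), where BIM1 was at 0.33, for that in red light (-0.48 to 0.12) or for the interaction. Over all tested probe sets 1.82%, 0.546% and 0.339% passed, so these counts of 0 are near the background. By an unadjusted limma p under 0.05 the counts were 4 in the dark (BAT1, BRL1, EXPA8 and ARL, all lower in atbzip16), 0 and 0, and over all 15922 probe sets 2156, 1637 and 1377. BRL1 had the lowest value in the dark, with signals of 43, 45.3 and 69.8 in atbzip16, all below those of dark Ler, a separation seen downward for 6.39% of all tested probe sets (-0.87 ± 0.40, limma adjusted p = 0.358).

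**Figure D4:**
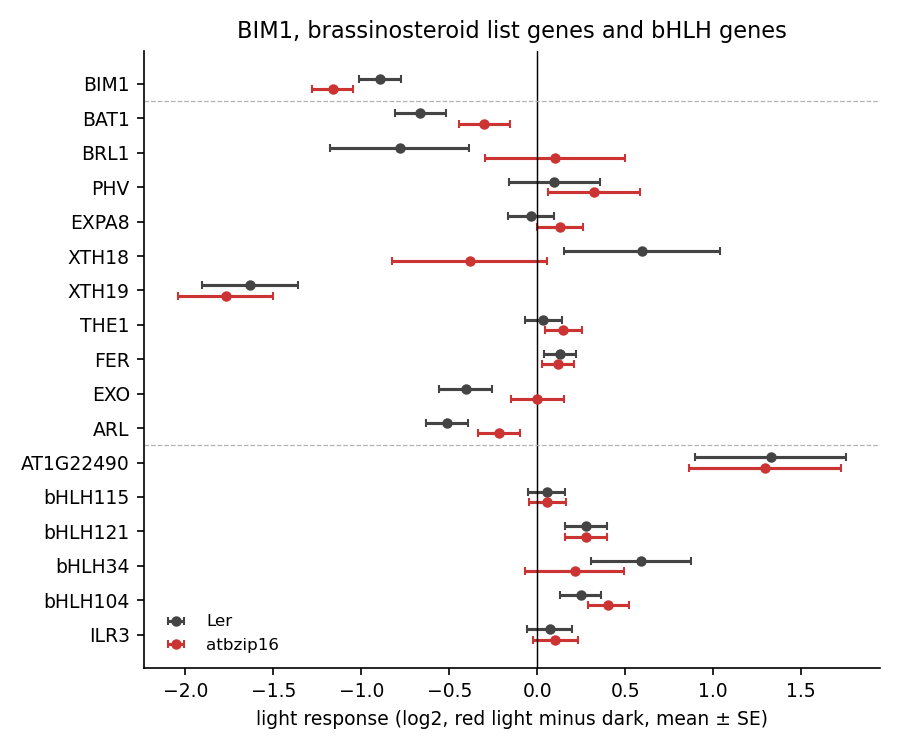
Log2 difference between red light and dark in Ler and atbzip16 for BIM1, the 10 brassinosteroid-list genes and the 6 named bHLH genes (points, estimate; bars, SE). BIM1 and XTH19 are well below 0 in both genotypes, while the 6 named bHLH genes lie above 0.

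BIM1 was also set beside the other bHLH genes that the annotation names as such. Genes of this family whose listed names lack the term were not included, so the set does not stand for the family. Of 34 listed, 6 were tested. None fell with light in either genotype. In Ler 1 rose, AT1G22490 (bHLH94), where 11.0% of all probe sets rose. In atbzip16 2 rose, AT1G22490 and bHLH104, where 13.1% rose. AT1G22490 was dim, at 40.9, 45.9 and 102.8 in dark Ler and 160.2, 139.7 and 135.7 in red-light Ler, a difference of 1.33 ± 0.43 (limma adjusted p = 0.0379). In atbzip16 it was at 67.6, 66 and 32.1 in the dark and 84.9, 158.8 and 156.4 under red light (1.29 ± 0.43, limma adjusted p = 0.0389). bHLH104, a regulator of iron uptake, rose by 0.40 ± 0.12 in atbzip16 (limma adjusted p = 0.0194) and differed by 0.25 ± 0.12 in Ler (limma adjusted p = 0.149). All 3 calls were lost without the replicate block (limma adjusted p = 0.0632 and 0.0617 for AT1G22490, 0.0864 for bHLH104). The calls of AT1G22490 were also lost with no signal filter or no variance trend, and so was the call in Ler without replicate 1 or 2 of dark Ler, any of the red-light Ler arrays or replicate 2 of red-light atbzip16 (range over single arrays left out, 1.06 to 1.83). In atbzip16 it was lost without replicate 2 or 3 of dark atbzip16, red-light Ler or red-light atbzip16 (0.77 to 1.64). The call of bHLH104 was lost without dark replicate 1 or without red-light replicate 1 or 3 of atbzip16 (0.25 to 0.49). The other 4, bHLH115, bHLH34, bHLH121 and ILR3, which belong with bHLH104 to the iron-deficiency network, lay between 0.05 and 0.59 in Ler and 0.06 and 0.28 in atbzip16. After median centring 3 of the 6 rose in each genotype. With limma, 0 of the 6 passed for either genotype difference, with or without the block, and 0 had an unadjusted p under 0.05. Over all probe sets 1.82% in the dark and 0.546% in red light passed with the block, and 2156 and 1637 of 15922 had an unadjusted p under 0.05, so these counts of 0 are near the background.

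The pattern of BIM1 over the 12 arrays was compared with that of 8610 single genes by Pearson's r of log2 signal. The median r was 0.07, while 25 genes reached 0.95 or more and 22 were at -0.95 or below. The arrays fall into the same 4 groups for every gene, so the points behind r are not independent. With the group means taken out, r for the 8 most similar genes was -0.26 to 0.43. Since these genes were chosen for their likeness, their values are a description.

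AT2G15010 (r = 0.987) was the gene most like BIM1. Its geometric mean signal was 1030 in dark Ler, 3491 in dark atbzip16, 69.9 in red-light Ler and 67.4 in red-light atbzip16. The next were AT1G54870 (0.976), PAP85 (0.976), AT4G16670 (0.976), AT1G14950 (0.976), SUFE2 (0.975), AT1G04560 (0.972) and AT1G27990 (0.971). PAP85, a vicilin-like seed storage protein, went from 13734 in dark Ler and 29204 in dark atbzip16 to 205.8 and 250.3 under red light. SUFE2, an activator of iron-sulfur cluster assembly, went from 871.8 and 1176 to 251.7 and 294.7. All 8 were lower under red light, by more than BIM1, at -7.05 to -1.45 in Ler and -7.63 to -1.90 in atbzip16. All 8 were also higher in atbzip16 than in Ler in the dark, at 0.43 to 1.76, and under red light they ran from -0.48 to 0.36. Of these genes chosen for their likeness, 5 passed for the dark difference with the replicate block and 1 without it. Over all tested probe sets 1.82% and 0.0628% passed. AT4G16670, AT1G14950 and SUFE2 did not pass. The 4 genes least like BIM1, AT4G32340 (-0.975), AT3G18050 (-0.975), AT4G17486 (-0.973) and AT4G28030 (-0.967), were higher under red light, by 0.75 to 1.22 in Ler and 0.84 to 1.48 in atbzip16. After quantile normalization 8 of the 8 most similar and 3 of the 4 least similar genes were chosen again, and after median centring 7 and 1.

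**Figure D5:**
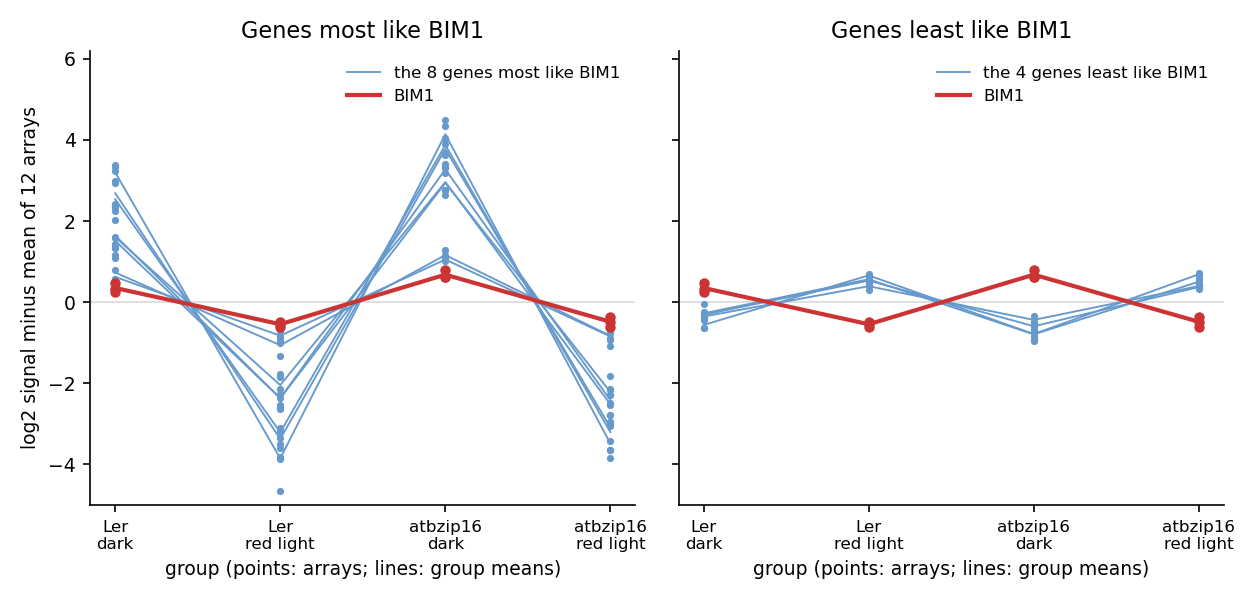
Log2 signal minus the gene's mean over the 12 arrays, by group (points, arrays; lines, group means, joined only to show which gene they belong to), for BIM1 (red) and the 8 genes most like it (left) or the 4 least like it (right). The most similar genes are also highest in dark atbzip16 and lowest under red light but move further, by up to -7.63 between dark and red light. That value is of AT1G14950, which was dim under red light, at geometric means of 51.6 in Ler and 66.4 in atbzip16. AT2G15010 (69.9 and 67.4), AT1G27990 (57.0 and 63.3) and AT1G54870 (97.4 and 97.7) were dim there too, so the sizes of these falls are uncertain. PAP85, AT4G16670, SUFE2 and AT1G04560 were brighter.

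Seed-maturation markers are given here beside BIM1. Of 12 listed, 7 were measured, PAP85 among them, and none of their values was 0. Their summed signal was 25865.7 to 51913.7 in dark Ler, 67086.7 to 94405.7 in dark atbzip16, 1024.7 to 1299.7 in red-light Ler and 751.3 to 1436.6 in red-light atbzip16. The sum was thus lower under red light and, in the dark, did not overlap between the genotypes, as for BIM1. Under red light it overlapped between the genotypes, again as for BIM1. PAP85 made up much of the sum, and it was the 1 marker of 7 that passed for the genotype difference in the dark (1.09 ± 0.21, limma adjusted p = 0.0154, and 0.205 without the replicate block), where 1.26% of all probe sets passed upward. The median of the 7 was 1.23, and OLEO3, an oil-body oleosin, lay the other way at -0.36. Within dark Ler the order differed, since replicate 1 had the highest marker sum (51913.7) and the lowest BIM1 signal (821.5). In dark atbzip16, replicate 1 again had the highest sum (94405.7), while BIM1 was highest in replicate 2 (1199.1). The green-tissue sums were higher under red light. The part of either marker group in the BIM1 differences was not tested.

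The 3 nearest tested genes on each side of BIM1 on chromosome 5 were not its immediate neighbours in the annotation. Genes with no probe set named for them, or only ones under the signal filter, were passed over. AT5G08110, ASPGA1 and AT5G08060 lie 2, 3 and 8 genes away on one side, and AT5G08139, AT5G08180 and AT5G08200 lie 2, 8 and 14 genes away on the other. With limma 0 of the 6 passed in the light responses or genotype differences, with or without the block. With the block 23.6% and 26.5% of all probe sets passed for light, 12.6% and 13.4% downward, and 1.82% and 0.546% for genotype. A count of 0 of 6 is near the background for genotype. For light, 6 genes are too few to tell it from the shares over all probe sets. By an unadjusted p under 0.05, 1 of them, AT5G08110, differed with light in Ler and 0 in the other 3 comparisons, where 5533 of all 15922 probe sets did so for light in Ler, 5968 for light in atbzip16 and 2156 and 1637 for the genotype differences. They lay between -0.50 and 0.20 for light in Ler and between -0.19 and 0.09 in atbzip16. In the dark the genotype difference of these 6 genes ran from -0.26 to 0.24. After median centring, 1 of the 6, AT5G08060, passed for light in Ler.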

How the data were processed

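Total RNA was hybridised to 1-colour oligonucleotide arrays. The protocol text also describes polysome RNA, while the labels name total RNA. The authors deposited 1 intensity per probe set on a linear scale, from MAS5 per the submitters' processing notes; version, settings and detection calls are not given in the sources used here. Checked on the values, the 2% trimmed mean of every array was 500 after rounding, so the arrays had been scaled to a common trimmed mean. Their medians still differed, at 148.3 to 186.1. Genes were named from the platform annotation, updated by Entrez gene ID against RefSeq (TAIR10.1 table, used for names, chromosome and gene order).

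Signals were taken to log2 with no pseudocount. The 64 control probe sets and the 30% of the others with the lowest mean signal (under 41.6) were left out, which kept 15922. The model was fitted over all 12 arrays with limma 3.58.1 in R 4.3.3 (eBayes with a variance trend). It held group means and the replicate number as a fixed block. In data simulated for light in Ler, true changes of 0.3, 0.5, 0.9 and 1.5 passed in 1.6%, 13.6%, 50% and 76.1% of cases, so most small changes were missed. Far fewer probe sets changed in that simulation than were called for light in the real data. Residuals of same-numbered arrays in different groups correlated at 0.164 to 0.505 (18 pairs), and of differently numbered arrays at -0.386 to 0.248 (36 pairs), so the numbers were taken to pair the samples. Array number, 3 per group, limits the precision. The labels name neither culture nor array batch, so p-values measure the spread between these samples.

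Alternatives were no block, other filters, log2(signal + 16), quantile normalization, median centring, no variance trend and leaving out each array. BIM1, the gene lists and the tests were chosen with earlier results of these data known. Named were all tested list members and the 8 genes with the highest and the 4 with the lowest r. The 3 nearest tested genes on each side of BIM1 were named as well. No probe or promoter sequence was used here.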

Additional observations from a re-analysis of the deposited data

How the results depend on the processing

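Across 19 alternatives, BIM1 kept its fall with light past the threshold in Ler (limma adjusted p 5.04e-05 to 0.00135) and atbzip16 (2.81e-06 to 0.000308), and stayed past none for either genotype difference or the interaction. Leaving out single arrays gave -0.94 to -0.84, -1.25 to -1.05, 0.28 to 0.38 (dark genotype), -0.026 to 0.17 (red light, reversed without replicate 3 of red-light atbzip16) and -0.35 to -0.16 (interaction), and for the averages -1.07 to -0.97 (light) and 0.15 to 0.25 (genotype). The averaged genotype difference of 0.19 did not pass the threshold (limma adjusted p = 0.290). Its exact permutation p, for this 1 gene, was 0.035 without the replicate block and 0.09375 with it.

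Counts of called probe sets moved most. Without the replicate block they were 1820 and 2224 for light in Ler and atbzip16, 10 and 6 for genotype in the dark and red light, 0 for the interaction, 3940 and 35 for the averages; with no variance trend 62, 14, 0 and 74 for the last genotype and interaction counts in that order, and 92 for the interaction with log2(signal + 16). The causes were not tested. Leaving out single arrays gave 2561 to 4065, 3103 to 4518, 107 to 396, 17 to 202, 16 to 94, 5300 to 6143 and 143 to 491.

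Signs turned, with no call, for EXPA8 (Ler 0.075 with median centring; atbzip16 -0.027 with quantile normalization), FER (atbzip16 -0.00095, quantile normalization) and EXO (atbzip16 0.099, median centring). They also turned when single arrays were left out, with ranges over those fits of -0.15 to 0.18 (EXPA8), -0.080 to 0.32 (PHV), -0.069 to 0.94 (XTH18), -0.026 to 0.12 (THE1) and -0.10 to 0.19 (ILR3) in Ler, and of -0.056 to 0.34 (BRL1), -0.085 to 0.56 (PHV), -0.068 to 0.092 (EXO), -0.018 to 0.14 (bHLH115) and -0.15 to 0.40 (bHLH34) in atbzip16. No detection calls were used, so dim probe sets such as BRL1 and AT1G22490 have no stated background.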
